A study of Mus musculus with 6 samples.

Results

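Hprt, Tbp, Gusb and Nono are 4 of the 15 genes that the array design names through a RefSeq transcript accession, among 60915 probes in all. They were taken by their probe names, and all 4 were well above background on every array. The measurements come from ATDC5, a mouse chondrogenic cell line derived from a teratocarcinoma that is used as a model of cartilage formation. The differentiated group holds 3 samples, for which chondrogenesis was induced over 14 days by 1% ITS (recombinant human insulin, human transferrin at 5.5 µg/ml and sodium selenite at 5 ng/ml). The undifferentiated group holds 3 samples of the same line. The labels carry the same induction text for both groups, so that they do not state how long the undifferentiated cells were cultured, and the insulin concentration in them reads zero and could not be resolved. Both groups were grown in the same medium with serum, and all samples come from this single line with no other genetic change named. Whether the replicates of a group were grown separately is not stated, and the p-values below may therefore reflect technical spread alone. The arrays are called D1 to D3 (differentiated) and U1 to U3 (undifferentiated) after their replicate numbers.

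Reference genes serve as the denominator of relative expression measurements, on the premise that their transcript level is the same in the conditions compared. Hprt encodes hypoxanthine phosphoribosyltransferase, which returns hypoxanthine and guanine to the nucleotide pool in purine salvage. Tbp encodes the TATA-binding protein, which binds DNA as part of the general transcription factor TFIID. Gusb encodes the lysosomal enzyme beta-glucuronidase, which removes glucuronic acid from glycosaminoglycan chains, the sugar polymers that make up much of cartilage matrix. Nono encodes an RNA- and DNA-binding protein that pairs with Sfpq and is a component of nuclear paraspeckles.

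The promoter sequences of the 4 genes are shown because the levels of the 4 genes moved together over the arrays of a group, while Hprt alone of the 4 was called between the groups. Some other named genes shared part of this movement, as given below. All 4 matched RefSeq's table (build GRCm38.p6), whose windows run from 250 bases before to 50 bases after the annotated start. The windows are chrX:52987828-52988127 on the plus strand for Hprt, chr17:15499638-15499937 on the plus strand for Tbp, chr5:130003000-130003299 on the minus strand for Gusb and chrX:101429401-101429700 on the plus strand for Nono. Each is written 5′ to 3′ on the gene's strand, with motif matches on either strand in capitals. The motifs searched were the GC box GGGCGG, the element named CCAAT after its letters, the TATA box written as TATAAA, and the core of ETS factor sites written as CGGAAG. No matches overlapped.
Hprt: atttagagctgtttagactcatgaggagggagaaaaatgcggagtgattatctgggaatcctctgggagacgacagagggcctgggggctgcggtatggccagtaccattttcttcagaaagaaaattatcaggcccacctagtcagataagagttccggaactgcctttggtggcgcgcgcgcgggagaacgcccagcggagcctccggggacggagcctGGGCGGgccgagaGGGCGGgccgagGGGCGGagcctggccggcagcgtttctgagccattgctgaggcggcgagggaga
Tbp: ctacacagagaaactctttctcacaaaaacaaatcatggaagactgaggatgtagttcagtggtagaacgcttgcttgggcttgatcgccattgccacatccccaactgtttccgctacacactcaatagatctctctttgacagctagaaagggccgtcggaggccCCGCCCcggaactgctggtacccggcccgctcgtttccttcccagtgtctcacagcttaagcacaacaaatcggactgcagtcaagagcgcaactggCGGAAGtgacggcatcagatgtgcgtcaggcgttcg
Gusb: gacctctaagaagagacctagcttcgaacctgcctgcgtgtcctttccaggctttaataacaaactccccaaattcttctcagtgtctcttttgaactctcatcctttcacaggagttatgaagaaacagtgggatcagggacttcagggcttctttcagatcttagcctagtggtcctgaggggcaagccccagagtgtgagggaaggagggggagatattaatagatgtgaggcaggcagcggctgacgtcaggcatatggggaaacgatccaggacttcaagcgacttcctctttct
Nono: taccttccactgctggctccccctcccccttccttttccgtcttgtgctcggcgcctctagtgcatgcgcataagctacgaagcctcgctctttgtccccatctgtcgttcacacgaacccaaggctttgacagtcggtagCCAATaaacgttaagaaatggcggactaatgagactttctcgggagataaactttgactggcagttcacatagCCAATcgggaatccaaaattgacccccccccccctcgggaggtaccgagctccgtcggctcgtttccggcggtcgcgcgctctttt

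The Hprt window held 3 matches to GGGCGG and the Tbp window 1, and the Gusb and Nono windows had 0. A match was found in 35.7% of all 32851 windows of 300 bases. Nono held 2 matches to CCAAT, which 37.4% of windows held, and Tbp held 1 match to CGGAAG, which 16.9% of windows held. TATAAA, found in 13.6% of windows, was in 0 of the 4. The Hprt window had the highest G+C content of the 4, at 61% with 22 CpG dinucleotides. Nono had 55.7% and 23, Tbp 53.3% and 17, and Gusb 49.7% and 6, against medians of 52.7% and 7 over all windows. Thus Gusb had fewer CpG dinucleotides than the median window, and the other 3 had more. These matches describe letters only and were not tested against expression.

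Each gene was read by 20 spots of its probe on every array. The unit is the Agilent processed signal, the brightness of a spot after background subtraction and detrending within its array. The median signal of the Hprt probe was 17670, 22190 and 28220 intensity units on D1 to D3 and 33420, 37410 and 35200 on U1 to U3. For Tbp it ranged over the 6 arrays from 1013 to 1862, for Gusb from 5478 to 10140 and for Nono from 3092 to 5598, so that all lay far above the local background. The raw spot signal was at least 58.0 times the background (Tbp on D1) and 0 spots were saturated. Brightness depends on the probe, so these values do not rank the genes by transcript number.

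The spots of a gene that were kept after flagged outliers were left out differed little within an array. Their coefficient of variation was between 1.18% and 4.37%, and the standard error of the mean over spots was at most 0.0142 on the log2 scale. The lowest of these, for Hprt on D3, was reached with 5 of its 20 spots left out, so the exclusion narrows this spread. The SD between arrays of a group was larger for each gene, at 0.097 or more. Spots on the same array share its RNA and hybridization and are not replicates, so n below is the number of arrays.

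**Figure D1:**
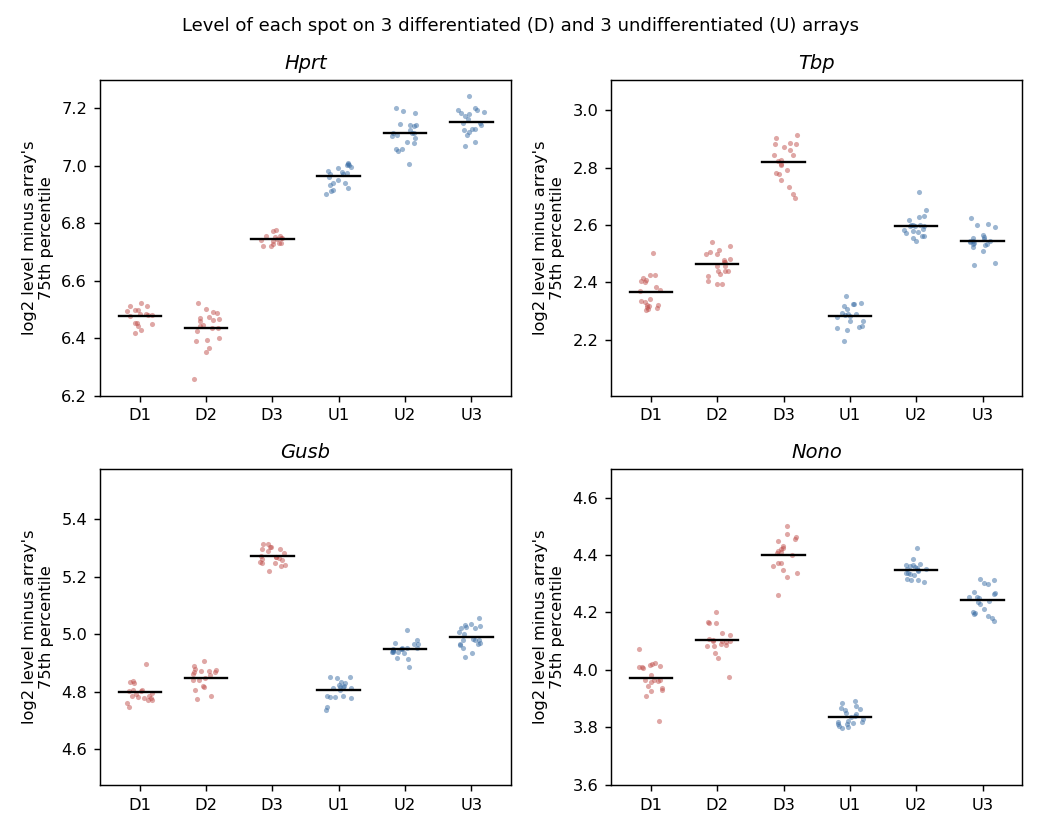
Level of each spot (points) and mean of the spots (line) of Hprt, Tbp, Gusb and Nono on 3 differentiated (D, red) and 3 undifferentiated (U, blue) arrays, in log2 units relative to the 75th percentile of the array; spots left out as outliers are not drawn. The Hprt levels of D1 to D3, up to 6.75, all lie below those of U1 to U3, from 6.96, while for the other 3 genes the groups overlap and D3 is the highest array.

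Whether the genes kept their level through chondrogenic induction was asked by comparing the groups. Hprt was lower in differentiated cells, and Tbp, Gusb and Nono showed no difference that passed the test. Levels are log2 values relative to the 75th percentile of the array. In cultures read as bulk RNA, fewer cells with a transcript and less transcript per cell cannot be told apart.

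Hprt stood at 6.48, 6.43 and 6.75 on D1 to D3 and at 6.96, 7.11 and 7.15 on U1 to U3. Every differentiated array was below every undifferentiated array. The means were 6.55 ± 0.169 and 7.08 ± 0.10 (SD, n = 3 each). Differentiated cells were thus lower by -0.53 on the log2 scale (standard error 0.138, 95% interval -0.85 to -0.20), or 1.44-fold. It passed the threshold of 0.05 narrowly in limma's test (adjusted p = 0.0499 over all 41838 kept probes). Over the alternatives its adjusted p in limma ran from 0.0116 to 0.446, and the value stayed below zero in each.

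Tbp stood at 2.37, 2.46 and 2.82 on D1 to D3 and at 2.28, 2.60 and 2.55 on U1 to U3. The groups overlapped, with both the highest level (D3) and the second lowest (D1) in the differentiated group. The means were 2.55 ± 0.239 and 2.48 ± 0.169 (SD, n = 3 each). Their difference was 0.07 on the log2 scale (standard error 0.167; limma, adjusted p = 0.826). The 95% interval ran from -0.32 to 0.47, so that a level up to 1.25-fold lower or 1.38-fold higher lies within it.

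Gusb stood at 4.80, 4.85 and 5.27 on D1 to D3 and at 4.81, 4.95 and 4.99 on U1 to U3. D1 and D2 lay close to U1, and D3 was above all other arrays. The means were 4.97 ± 0.260 and 4.92 ± 0.097 (SD, n = 3 each). They differed by 0.06 on the log2 scale (standard error 0.163, 95% interval -0.33 to 0.44; limma, adjusted p = 0.862).

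Nono stood at 3.97, 4.10 and 4.40 on D1 to D3 and at 3.84, 4.35 and 4.24 on U1 to U3. Its lowest array was U1 and its highest D3, so that the groups overlapped over most of their range. The means were 4.16 ± 0.220 and 4.14 ± 0.270 (SD, n = 3 each), 0.02 apart on the log2 scale (standard error 0.186, 95% interval -0.42 to 0.46; limma, adjusted p = 0.967). None of the 3 intervals shows an equal level, since each holds changes of 1.249-fold or more in both directions.

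In all, 1 of the 4 genes was called, against 13.3% of the 41838 kept probes in either direction, and it was lower, as were 7.9% of kept probes. Groups without overlap were found for 1 of the 4 genes and for 32.9% of the probes with a value on all 6 arrays (19.2% lower). Bright probes as a whole had lower values in differentiated cells. Hprt, Gusb and Nono belong to the brightest decile of kept probes, whose median log2 difference was -0.23, and Tbp to the next, with a median of -0.08. Within their own decile, 21.2% of probes had a lower difference than Hprt, against 68.1% for Tbp, 79.9% for Gusb and 76.6% for Nono. Hprt was thus on the lower side and the other 3 on the upper side of probes of like brightness.

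The Hprt call rested on the settings and arrays used. It was lost with quantile normalization (log2 difference -0.20; limma, adjusted p = 0.401), which forces 1 distribution on all arrays and called 13.4% of probes. The authors' value table also lost it (-0.25, adjusted p = 0.225 in limma, 13.6% called). The normexp background correction kept it at -0.56 (limma, adjusted p = 0.0116, 15.7% called). Without D1 (adjusted p = 0.161 in limma), D2 (0.176), U1 (0.0659), U2 (0.160) or U3 (0.145) the call was lost, and without D3 it was kept (-0.62, adjusted p = 0.0228).

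Slide and scan overlapped the groups in part. D1 to D3 and U3 lay on slide 1, U1 and U2 on slide 2. With the slide as a block, Hprt stood at -0.60 (limma, adjusted p = 0.147, with 7.67% of probes called), and within slide 1 also at -0.60 (adjusted p = 0.196). Within the scan that held D2, D3 and U3 it stood at -0.56 (adjusted p = 0.446 in limma). All of these values rest on U3 as the single undifferentiated array beside differentiated ones, which is assumed to vary like the others. The part of slide and scan in the Hprt difference was not tested beyond these values. For Tbp, Gusb and Nono the slide block gave 0.0036, -0.02 and -0.08 (limma, adjusted p of 0.911 or more). The signs of these 3 differences also turned with single arrays. Without D3 the values were -0.06, -0.09 and -0.10 in the same order (adjusted p from 0.640 to 0.806 in limma), and without U1 Tbp was at -0.02 and Nono at -0.14 (adjusted p = 0.954 and 0.676 in limma).

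**Figure D2:**
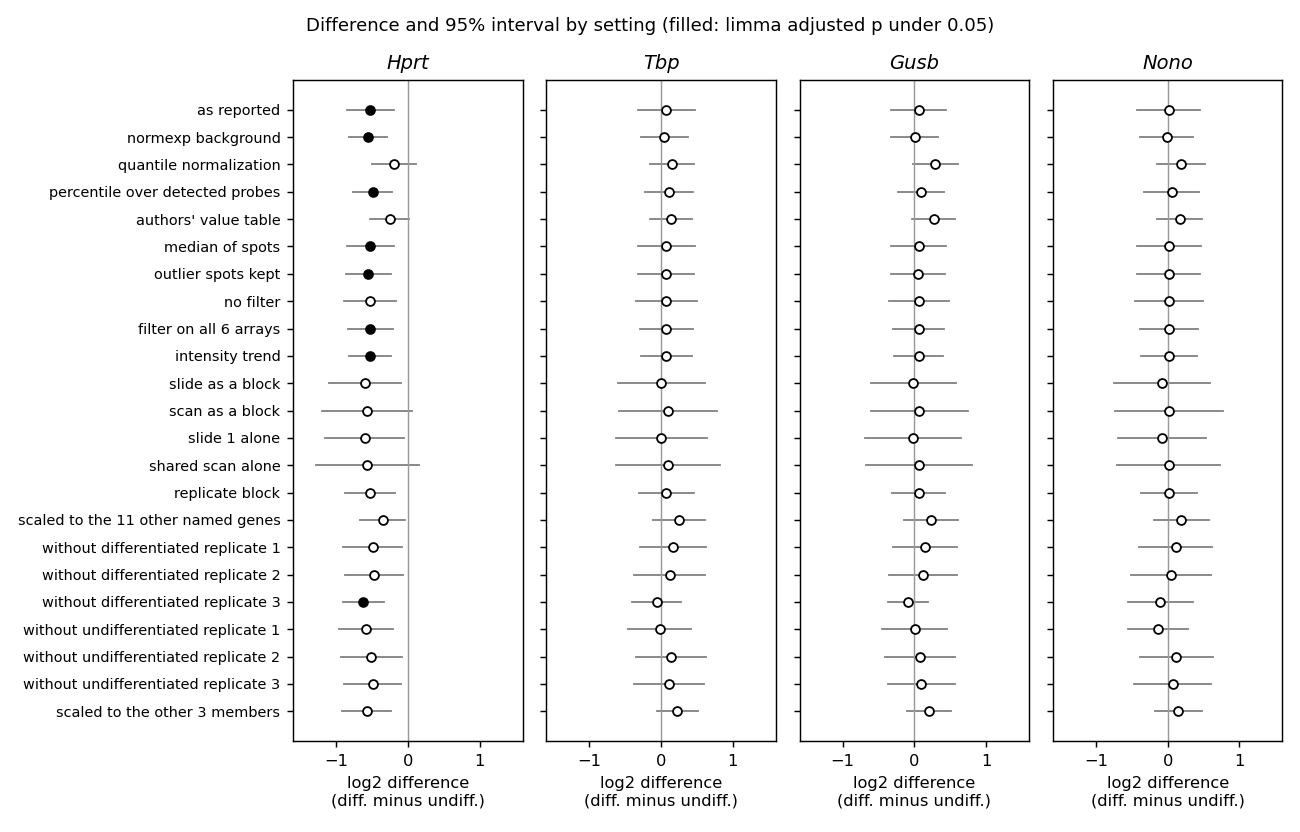
Log2 difference (differentiated minus undifferentiated, points) of each gene with its 95% interval (lines) under 23 settings; filled points have a limma adjusted p under 0.05. Hprt lies below zero in all of these and is called in part of them, while no setting calls Tbp, Gusb or Nono.

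A ratio of 2 genes on the same array does not change when the array is multiplied by a constant, and it was compared for all 6 pairs. It can change under normalizations that act differently on bright and dim probes. A change of such a ratio shows unequal change of its genes, not which of them changed. The 3 ratios with Hprt as the numerator were lower on every differentiated array than on any undifferentiated array, and the 3 ratios among Tbp, Gusb and Nono overlapped. For single levels, groups without overlap were found for 32.9% of the probes with a value on all 6 arrays. For ratios to Hprt that share was not counted.

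The log2 ratio of Hprt over Tbp was 4.11, 3.97 and 3.93 on D1 to D3 and 4.68, 4.52 and 4.61 on U1 to U3. The change was -0.60 on the log2 scale, or 1.52-fold, with SDs of 0.096 in differentiated and 0.083 in undifferentiated cells (n = 3 each). Hprt over Gusb was 1.68, 1.59 and 1.47 on D1 to D3. On U1 to U3 this ratio was nearly constant at 2.16, 2.17 and 2.16, and the change was -0.58. Hprt over Nono was 2.50, 2.33 and 2.34 on D1 to D3 and 3.13, 2.76 and 2.91 on U1 to U3, a change of -0.54. Each of these changes was larger than the SD of either group. In a two-sided exact permutation test over the 6 arrays each gave p = 0.1, the smallest that 3 against 3 allows, or 0.2 after Benjamini-Hochberg adjustment over the 6 pairs. The test can therefore not pass 0.05 in this design.

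The other ratios had smaller changes. Tbp over Gusb was -2.43, -2.39 and -2.45 on D1 to D3 and -2.52, -2.35 and -2.45 on U1 to U3, a change of 0.02 (exact permutation p = 0.9, adjusted 0.9). Quantile normalization turned it to -0.14, and in the authors' value table it was -0.13, with overlapping groups in both. Tbp over Nono changed by 0.06, from -1.67 ± 0.102 to -1.61 ± 0.030 (SD, n = 3 each; exact permutation p = 0.4, adjusted 0.6). Gusb over Nono changed by 0.04, from 0.772 ± 0.186 to 0.813 ± 0.064 (SD, n = 3 each; exact permutation p = 0.8, adjusted 0.9). For Tbp over Gusb and Gusb over Nono the change was smaller than the SD of either group. For Tbp over Nono it was smaller than the undifferentiated SD and larger than the differentiated one.

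The Hprt ratios had no overlap between the groups in any of 36 recomputed values (3 ratios under 12 settings). Their changes lay between -0.65 and -0.35 for Tbp, between -0.63 and -0.49 for Gusb and between -0.63 and -0.38 for Nono as the denominator. The settings share their arrays and the 3 ratios share Hprt, so the 36 values are no separate evidence. Settings that only leave out arrays (slide 1 alone, or without 1 array) cannot bring overlap where the full set has none. Their outcome for the Hprt ratios was thus fixed beforehand. With arrays scaled to Hprt, 36.7% of the other kept probes were called in limma's test (15373), of which 14425 were higher in differentiated cells. For a probe called higher there, the ratio of Hprt to that probe was lower, so such a change was common. The share of all kept probes whose ratio to Hprt had no overlap was not counted. Among the 3 ratios without Hprt, 2 of 36 values had no overlap, both for Tbp over Nono and both with arrays left out.

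**Figure D3:**
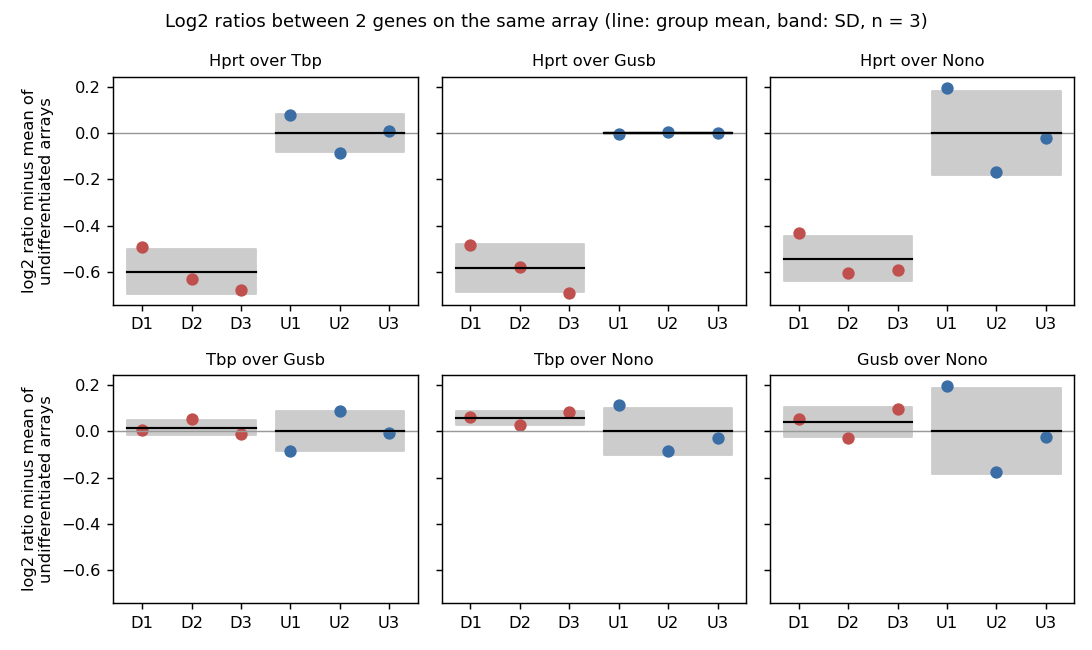
Log2 ratio of 2 genes on the same array minus the mean of the undifferentiated arrays, for each of the 6 pairs; points are arrays (D red, U blue), lines group means and bands the SD (n = 3). The ratios of Hprt lie 0.54 to 0.60 lower on average in the differentiated group, and the other 3 scatter around zero in both groups.

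Levels of Tbp, Gusb and Nono correlated over the arrays, though the pair of Gusb and Nono missed 0.05 after adjustment. Over the 6 arrays Tbp and Nono had the same order (Spearman's rho = 1, exact permutation p = 0.00278, adjusted 0.0167 over the 6 pairs) and a Pearson's r of 0.946 (exact permutation p = 0.00556, adjusted 0.0167). Without D3 and U1, the arrays farthest from the median of Tbp, r was 0.996. For Tbp and Gusb r was 0.95 (exact permutation p = 0.00556, adjusted 0.0167) and rho 0.886 (p = 0.0333, adjusted 0.0667), with r = 0.903 without the same 2 arrays. For Gusb and Nono r was 0.819 (exact permutation p = 0.0264, adjusted 0.0528), rho was 0.886 (p = 0.0333, adjusted 0.0667), and r was 0.870 without D1 and D3. All levels of an array share its scale, which moves genes together. No value is given within slide 1, whose 4 arrays are under the 6 taken as the least for a correlation. The r values with 2 arrays left out also rest on 4 arrays, and they only describe how r depends on those arrays.

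Hprt, whose groups lie apart, is given no pooled correlation with the other 3 as a result. As a description, with each level taken as the deviation from its group mean, Hprt had r = 0.940 with Tbp, 0.964 with Gusb and 0.857 with Nono over the 6 arrays. The deviations of a group sum to zero, so these r rest on fewer free values than 6. Within groups Hprt thus followed the same arrays as the other 3, with D3 above its group mean for all 4 genes and U1 below it. This was not particular to the 4 genes. The named genes Tfrc, Rpl13a and Hsp90ab1, described below, had the same pattern on D3 and U1, and the remaining named genes did not have both parts of it. The named gene whose level over the 6 arrays was most like that of Hprt was Tfrc, the transferrin receptor (r = 0.983 among 14 named genes), followed by the ribosomal protein gene Rpl13a (0.962). Both r values were taken over the arrays of both groups, so that they hold the difference between groups as well as the spread within them. Tfrc stood at 6.13 ± 0.170 in differentiated and 6.69 ± 0.210 in undifferentiated cells (SD, n = 3 each). The difference of -0.56 on the log2 scale missed the threshold (limma, adjusted p = 0.0652). The next largest among the other named genes were -0.45 for the chaperone gene Hsp90ab1 and -0.44 for the beta-actin gene Actb (limma, adjusted p = 0.176 and 0.167). For Tbp the most like gene was Gusb, and for Gusb and Nono it was Tbp. The least like gene was Gk, a glycerol kinase gene, for each of these 3 (r from -0.874 to -0.605), and for Hprt it was B2m, which encodes beta-2 microglobulin (r = -0.740).

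How steady the genes were depends on whether the spread within groups or over all arrays is taken. Within groups Hprt was the steadiest of the 4, with a pooled SD of 0.139 against 0.197 for Gusb, 0.207 for Tbp and 0.246 for Nono. Over all 6 arrays Hprt had the largest SD instead, at 0.313, against 0.179 for Gusb, 0.189 for Tbp and 0.220 for Nono. The SD of Hprt exceeded that of 61.0% of kept probes, whose median was 0.264, and the SDs of Gusb, Tbp and Nono exceeded those of 24.6%, 27.9% and 37.6%. The SDs rest on 6 arrays and are given without a test.

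The measure M of the geNorm procedure, often used to choose reference genes, is the mean SD of the log2 ratios of a gene to each other candidate, and a low value means steady ratios. Among the 4 genes M was 0.157 for Tbp, 0.171 for Gusb, 0.175 for Nono and 0.330 for Hprt. Leaving out 1 array at a time, M of Hprt was between 0.301 and 0.355 and M of the other 3 between 0.143 and 0.191. Among all 15 named genes M ran from 0.211 for Ppia, a cyclophilin gene, to 0.352 for B2m. Tbp ranked 5 (0.250), Gusb 6 (0.252), Nono 7 (0.255) and Hprt 9 (0.276) of 15.

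When the gene with the highest M was removed step by step, as the procedure does, the 4 genes changed places. Gusb, Tbp and Nono were removed in steps 5, 6 and 7, with M of 0.261, 0.277 and 0.283 among the genes then left. Hprt and Tfrc remained as the last pair, with M = 0.0717. For 2 genes M is the SD of their log2 ratio. The ratio of Tbp over Gusb, both removed earlier, had a smaller SD over the 6 arrays (0.0594), so the last pair was not the steadiest. Hprt and Tfrc had log2 differences of -0.53 and -0.56 between the groups, the largest in size of the 15 genes. M uses no group labels and is low for genes that move together, whether or not their level differs between conditions.

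**Figure D4:**
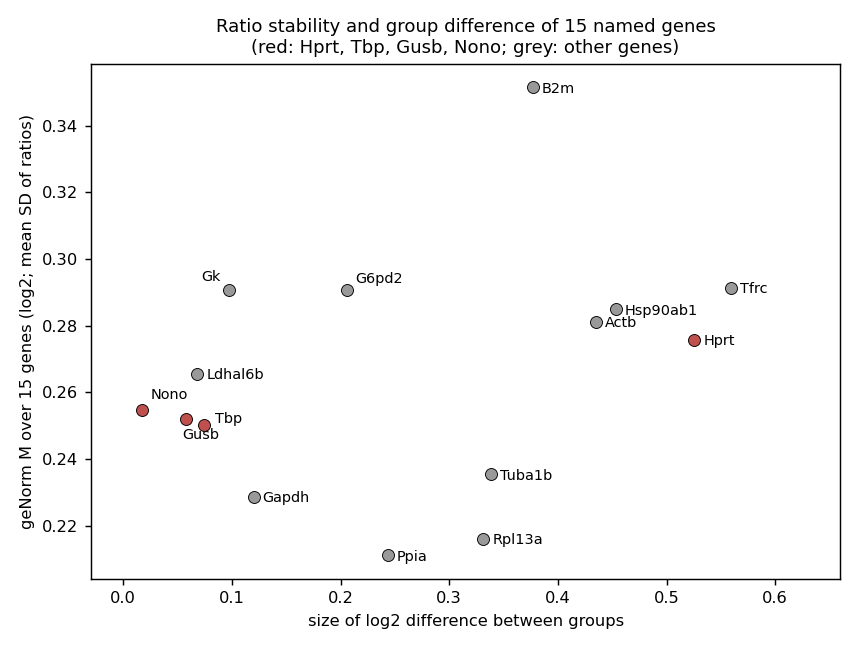
Size of the log2 difference between the groups (horizontal axis) and geNorm M over 15 named genes (vertical axis, log2 units); red points are Hprt, Tbp, Gusb and Nono and grey points the other 11 genes. Tbp, Gusb and Nono lie at the left with M from 0.250 to 0.255, and Hprt lies at the right with M = 0.276, near Tfrc.

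What the choice of reference does to the other measurements was examined by scaling each array to the level of each gene in turn and refitting all other kept probes. With Hprt as the scale, 36.7% of probes were called (15373), of which 14425 were higher and 948 lower in differentiated cells. With Tbp 10.5% were called (1686 higher, 2720 lower), with Gusb 10.9% (1777 higher, 2768 lower) and with Nono 6.37% (1360 higher, 1304 lower). The 75th percentile gave 2258 higher and 3305 lower. The mean of all 4 genes gave 9.79% (4097), with 2366 higher and 1731 lower. That count was 2159 without D1, 1967 without D2, 2075 without U2, 2260 without U3 and 1619 (1202 higher, 417 lower) with the slide as a block. The mean of Tbp, Gusb and Nono without Hprt gave 1714 higher and 2394 lower. The share of calls that were higher was thus 93.8% with Hprt, 57.8% with the 4-gene mean and 41.7% with the mean that leaves Hprt out.

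The median log2 difference of all probes shows the shift that each scale brings. It was -0.05 with the 75th percentile, 0.48 with Hprt, -0.12 with Tbp, -0.11 with Gusb, -0.06 with Nono and 0.05 with the mean of all 4. Of the calls made with Hprt, 20.9% (3206) were also made with the 75th percentile, which is 57.6% of the latter's calls. For Tbp the shared calls were 88.0% of its own and 69.7% of the percentile's, and for Nono 98.5% and 47.2%. Among shared calls 0 had opposite signs under any of these scales.

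Scaling to a gene subtracts 1 value per array, so it shifts the difference of every other gene by the same amount. The signs and medians of the other 11 named genes below therefore restate the scale's own difference. With the 75th percentile 0 of 11 were called in limma's test, 8 had values below zero and the median was -0.24. An unadjusted p under 0.05 in limma was found for 5 of the 11, and for 10915 of all 41838 kept probes. With Hprt as the scale 10 of 11 had values above zero, the median was 0.28, and 3 were called higher, namely B2m (0.90; limma, adjusted p = 0.00484), the glucose-6-phosphate dehydrogenase gene G6pd2 (0.73, adjusted p = 0.00755) and the lactate dehydrogenase relative Ldhal6b (0.59, adjusted p = 0.0293). With the 75th percentile these 3 genes stood at 0.38, 0.21 and 0.07 in the same order. Their probes lay in brightness deciles 10, 7 and 3 of the kept probes, with 10 the brightest. With Tbp or with Gusb 1 of 11 was called, in both cases Tfrc, lower (-0.63 and -0.62; limma, adjusted p = 0.0359 and 0.0407). With Nono and with the mean of all 4 the count in limma was 0 of 11, and 2 and 3 genes had an unadjusted p under 0.05.

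**Figure D5:**
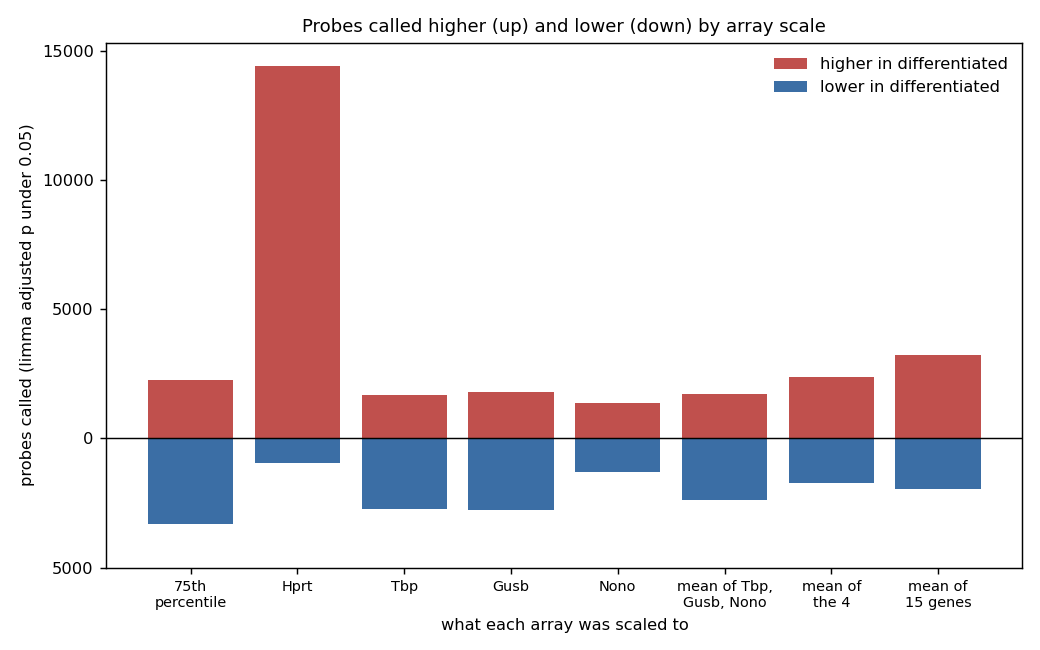
Number of probes called higher (red, upward) and lower (blue, downward) in differentiated cells at a limma adjusted p under 0.05, by what each array was scaled to. Scaling to Hprt gives 14425 higher and 948 lower calls, and scaling to Tbp, Gusb or Nono gives between 1304 and 2768 in each direction.

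Against references of the same kind, Hprt stood at -0.58 when arrays were scaled to the mean of Tbp, Gusb and Nono (standard error 0.142; limma, adjusted p = 0.0518), which missed the threshold. Scaled to the 11 other named genes it stood at -0.35 (adjusted p = 0.149 in limma), and Tbp, Gusb and Nono at 0.25, 0.23 and 0.19 (limma, adjusted p from 0.349 to 0.493). With the authors' deposited values Hprt was 14.60, 14.53 and 14.78 on D1 to D3 and 14.95, 14.87 and 14.85 on U1 to U3, again without overlap. In the same values Gusb was 12.92, 12.96 and 13.24 on D1 to D3 and 12.82, 12.76 and 12.73 on U1 to U3. The differentiated arrays were there all higher for Gusb (log2 difference 0.27, adjusted p = 0.242 in limma). With the percentile-scaled levels, groups without overlap were common, at 32.9% of the probes with a value on every array. For the authors' values that share was not counted.

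Across the series, 62.6% to 71.0% of probes per array were well above background, with the lowest share on D1. The 75th percentile of log2 signal was between 7.63 (D1) and 8.08 (U2). No probe with a gene name reads a cartilage marker, so that the differentiated state of the cells was not checked here. Whether the probes also read related sequences was not tested.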

How the data were processed

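RNA of 6 samples was labelled with Cy3 and hybridized to 1-colour Agilent arrays, per the labels' protocols, although the labels also name biotin and the series text Affymetrix arrays. The authors' deposited scanner files hold intensity values from Agilent Feature Extraction 11.0.1.1, per the file headers; the processed signal is background-subtracted, detrended and not scaled between arrays. The authors' deposited value table holds log2 values with column medians of 5.755, which correlate at 0.998 or more with the log2 signal of their own array; its filter and normalization are not given in the sources used here. The flags and spot positions are other columns of the same deposited files.

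Flagged outlier spots were left out (16 of 480 spots of the 4 genes), and spots of a probe were averaged on the log2 scale. The 75th percentile of each array was subtracted. Probes well above background on at least 3 of 6 arrays were kept (41838 of 60915; 15 negative-control probes were left out). Groups were compared with limma 3.58.1 (lmFit, eBayes, R 4.3.3), two-sided, with Benjamini-Hochberg adjustment over all kept probes and a threshold of 0.05, which was checked on simulated data. Ratios were tested by exact permutation. When arrays were scaled to a gene, that gene was left out of the fit. The rule named the 4 genes, at most 3 other named genes with the largest differences and the gene most like each of the 4. Rpl13a, Gk, B2m, Ppia, G6pd2 and Ldhal6b were named after their values were seen. The members and lists were chosen with earlier results of these data known. The normexp alternative used the median spot signal. The number of arrays limits the precision. No 2 arrays held the same values. Alternatives are given in the closing section.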

Additional observations from a re-analysis of the deposited data

How the results depend on the processing

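Hprt stayed below zero in all 23 alternatives to its log2 difference of -0.53 and kept its call in 7. The call was lost with quantile normalization (-0.198), the authors' value table (-0.253), no filter (-0.525), blocks for slide (-0.603) or scan (-0.565), only the arrays of slide 1 (-0.603) or of the scan with both groups (-0.565), a minimum change of 1.2-fold (-0.525), and scaling to the 11 other named genes (-0.350) or to the other 3 genes (-0.575). With the replicate number as a block the difference was -0.525 (limma, adjusted p = 0.0840), so this block also ended the call; it changed no other call of the 4 genes. Deviations of same-numbered samples from their group means correlated at 0.195, -0.120 and 0.053 for numbers 1 to 3. The highest values with samples of another number were -0.050, 0.126 and 0.202. With 3 arrays per group these values cannot show whether same-numbered samples share more than a number. Without 1 array the Hprt difference was between -0.622 and -0.467. The count of the 4 genes called was 1 as reported and 0 under each of these settings except the scaling to the other 3 genes, for which it was not computed, and 0 to 1 without 1 array.

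The differences of the other 3 genes were near zero and changed sign with several settings. Without 1 array Tbp was between -0.061 and 0.166, Gusb between -0.092 and 0.146 and Nono between -0.136 and 0.120. The negative values came without D3 (-0.0611 for Tbp, -0.0917 for Gusb, -0.104 for Nono) and without U1 (-0.022 for Tbp, -0.136 for Nono). With the slide block and on slide 1 alone Gusb was -0.0187 and Nono -0.0824, and with the normexp background Nono was -0.0158. For all settings named here the cause was not tested.

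With quantile normalization the ratio changes were -0.346 for Hprt over Tbp, -0.488 for Hprt over Gusb, -0.383 for Hprt over Nono, -0.143 for Tbp over Gusb and -0.037 for Tbp over Nono. With the authors' value table they were -0.387 for Hprt over Tbp, -0.134 for Tbp over Gusb and -0.032 for Tbp over Nono. Without 1 array Tbp over Gusb was between -0.025 and 0.061 and Gusb over Nono between -0.046 and 0.139.

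Scaled to the mean of the 4 genes, 4097 probes were called. The count was 15373 with Hprt alone, 2664 with Nono alone, 1619 with the slide block, 2674 with the normexp background, 2794 with the replicate block (within 1.5 times) and 1967 to 3951 without 1 array, the low counts being those without D1 (2159), D2, U2 (2075) or U3 (2260).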

Other observations

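The lowest spots of the Hprt and Gusb probes were low mainly on 1 or 2 arrays. Before outliers were left out, the Hprt spot in row 384, the last of the array, and column 14 was on average 0.102 below the array's median for Hprt on the log2 scale, and the next lowest spot 0.063 below it. This Hprt spot, the lowest on average, deviated by -0.30 on D3 and -0.19 on D2, and between -0.09 and 0.02 on the other arrays. On D3 its level was 6.446, and the Hprt spots in rows 9 and 137 (column 164 in both) stood at 6.431 and 6.474. Low spots were thus not confined to the last row, and a part of the position was not tested. The Gusb spot in row 157 and column 50 was on average 0.073 below, and the next lowest 0.035. The lowest Gusb spot deviated by -0.31 on D1 and between -0.06 and 0 on the others. On D1 and D3 the Hprt spot of row 384, and on D1 the Gusb spot of row 157, was among those left out. For Tbp and Nono the lowest spots were 0.029 and 0.039 below. The deviations of the 20 spots correlated between arrays with a median r of 0.230 for Hprt, 0.274 for Nono, 0.113 for Tbp and 0.069 for Gusb over 15 pairs of arrays, given as a description. Keeping the outlier spots moved the Hprt log2 difference from -0.53 to -0.55 (limma, adjusted p = 0.0370), and taking the median of the spots gave -0.52 (0.0490).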
